A study of Rattus norvegicus with 4 samples.

Results

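The genes described here are the annotated coding open reading frames (ORFs) of the Timm, Tomm and Chchd families together with Samm50, Immt, Apool, Mfn1, Mfn2, Opa1, Oma1, Dnm1l, Fis1, Phb and Phb2. The rule matched 43 ORFs and kept, for each gene, the ORF with most counts, which left 40 genes of the 13694 that had an annotated ORF among 18847 ORFs in all. The rule uses names only. The members were measured by ribosome profiling, which sequences the short RNA fragments protected by ribosomes, so a value depends on both the amount of an mRNA and its translation. The cells were ventricular cardiomyocytes of Sprague-Dawley rat pups, taken at postnatal day 2, and a plating step was used to reduce other cells. One group of 2 libraries came from cells given phenylephrine (PE, an α1-adrenergic agonist and a standard stimulus of hypertrophy) at a dose of 20 µM over 24 h. The other group of 2 libraries came from untreated cells. Whether libraries of a group are separate cultures is not stated in the sources used here, and the p-values therefore cover only the spread among these libraries, which may be technical.

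Nearly every protein of a mitochondrion is made on cytosolic ribosomes and has to be imported. The TOM complex of the outer membrane is the entry gate, small TIM chaperones carry hydrophobic proteins across the intermembrane space, the TIM22 and TIM23 complexes insert or translocate them at the inner membrane, and the SAM complex builds barrel proteins into the outer membrane. The MICOS complex and the prohibitins shape and support the inner membrane and its folds, the cristae. Mitofusins and Opa1 fuse mitochondria, and Dnm1l with its outer membrane receptors divides them. Heart muscle cells are packed with mitochondria and depend on all of these steps.

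Library totals ran from 11446574 to 13827599 footprints on listed ORFs. Replicates differed beyond counting noise (chi-square over degrees of freedom 1.61 for control, 1.60 for PE). Of 7 measured cardiomyocyte markers 1 was higher and 6 lower, and their summed level was 53455 to 53599 CPM (counts scaled to library size) in control and 46699 to 46951 in PE. Other cell types were also present: 8 fibroblast markers summed to 34436 to 34705 CPM in control and 20832 to 21069 in PE, 5 macrophage markers to 437 to 456 and 306 to 307, 4 endothelial markers to 193 to 201 and 114 to 122, 3 mesothelial markers to 173 to 187 and 114 to 116, and 4 smooth muscle markers to 1419 to 1428 and 1255 to 1256. Of those 24 markers 2, the fibroblast gene Dcn and the smooth muscle gene Cnn1, were higher after PE and 16 were lower. The fibroblast marker Col1a2 was close to 0 counts, at 1.26e-05 counts per P-site (a measure explained below). It was not tested and adds nothing to the fibroblast sum. The cardiomyocyte marker Myh6, called lower, had 0.19 counts per P-site. In such bulk samples fewer cells of a type and less RNA per cell cannot be told apart, and the part of these shifts in the results below was not tested.

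Footprints on the import and dynamics genes moved little after PE and in both directions. Of the 40 members, 36 had enough counts to test, and 10 were higher and 5 lower at a Benjamini-Hochberg adjusted p under 0.05 over the 12609 ORFs tested (edgeR, quasi-likelihood; the source of every adjusted p unless another tool is named). The higher members were Chchd6, Timm23, Chchd7, Timm13, Tomm6, Tomm20, Chchd3, Timm10, Tomm34 and Dnm1l, and the lower ones Mfn1, Timm9, Timm29, Timm21 and Samm50. Among all tested ORFs 21.4% were higher and 21.3% lower, against 27.8% and 13.9% of the tested members, so neither share was far from the background. Groups did not overlap in 26 tested members (72.2%), where the background is 68.6%. Changes of at least 1.5-fold, up or down, were seen in 2 members, the called Chchd6 and the sparsely counted Tomm5 that did not pass, or 5.56%, beside 21.3% of all tested ORFs.

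The median log2 fold change of the tested members was 0.07, with quartiles of -0.10 and 0.23, and that of all tested ORFs was 0.00, with quartiles of -0.27 and 0.26. Summed over the 36 tested members, footprints were 2706 and 2682 CPM in the control libraries and 2736 and 2764 in the PE libraries. The sums of the groups did not overlap, but their ratio was only 1.02. The count of higher members depended on the setting: DESeq2 called 6 higher and 5 lower, and leaving out PE replicate 2 also left 6 higher. A DESeq2 comparison deposited by the authors also called fewer ORFs in all, 12.9% higher and 12.8% lower. Short ORFs tended to read higher after PE across the whole table. The fitted log2 trend was 0.12 at 306 nt and -0.11 at 3355 nt, and the 10 higher members had a median ORF length of 531 nt against 1272 nt for all tested ORFs. With that trend removed, 7 members were higher and 6 lower.

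**Figure D1:**
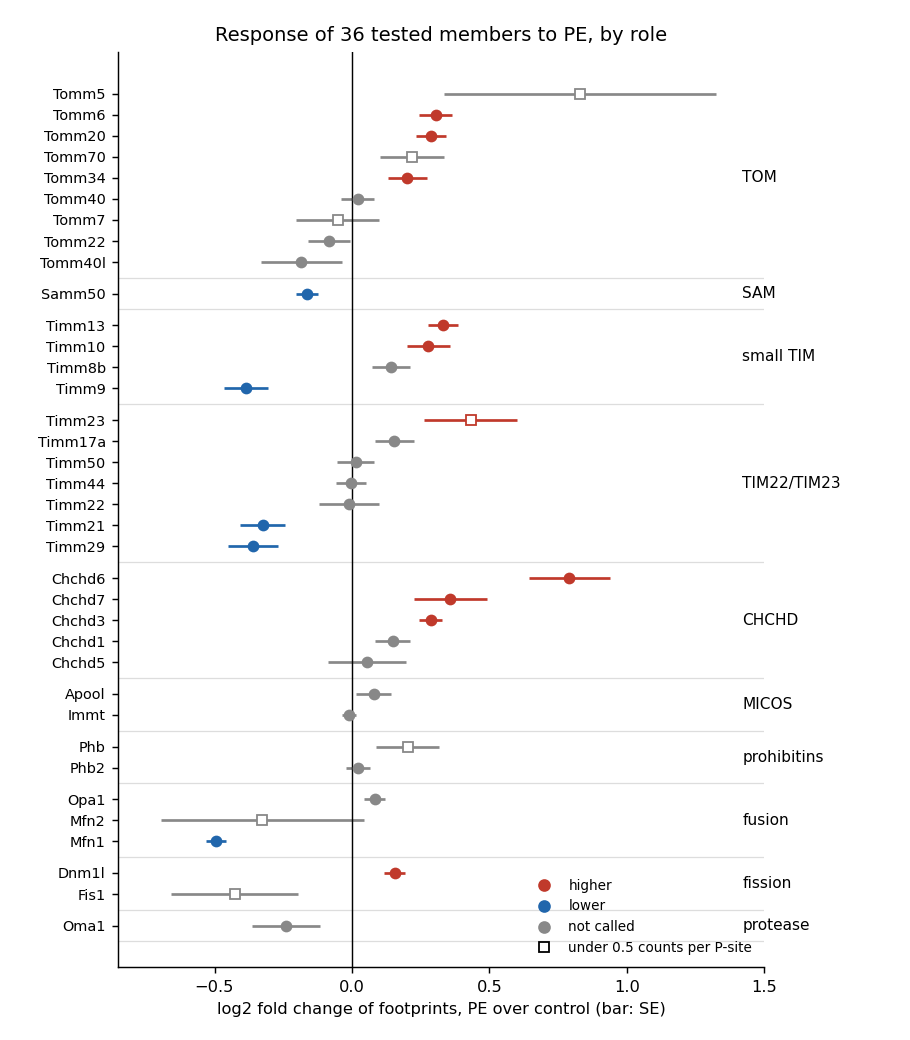
Log2 fold change of footprints, PE over control, for the 36 tested members grouped by role, with the standard error as a bar; red and blue mark members called higher and lower, grey those not called, and open squares members with under 0.5 counts per P-site. Values lie between -0.49 for Mfn1 and 0.83 for Tomm5, whose error bar is the widest of the plot, and called members occur on both sides of 0.

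The counts did not reach every member equally. The deposited annotation also lists P-sites (where the peptidyl site of each ribosome lay), pooled over libraries, and the median tested ORF had 1.17 counts per P-site. Under 0.5 counts per P-site were found for 11 of the 40 members: Chchd10, Chchd4, Fis1, Mfn2, Phb, Timm10b, Timm17b, Timm23, Tomm5, Tomm7 and Tomm70. Chchd10, an intermembrane space protein mutated in inherited muscle and motor neuron disease, is the extreme case, with 10258 P-sites and 2 counts. Timm17b and Timm10b had 1152 and 471 P-sites and 0 counts in every library. Together with Chchd4, the oxidoreductase that folds cysteine-rich proteins arriving in the intermembrane space, these were the 4 members that could not be tested. The ORF kept for Chchd4 had 21 counts, fewer than the 76 of a full-length match listed under another gene name (below).

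Most of these genes shared protein sequence with an ORF of another gene in the same table, over lengths that varied. Timm10b was matched over all 100 residues by an upstream ORF of Dnhd1 on the same chromosome. Tomm5 shared only 40 residues with an overlapping upstream ORF of Fbxo10, also on its own chromosome. Both of those upstream ORFs had 0 counts. Of the 11, 8 shared a run of at least 20 residues with a listed ORF of another gene and 1 more, Fis1, overlapped a second annotated ORF of its own gene. Chchd10 was matched over all 138 residues by LOC103694872, which was listed with the same 10258 P-sites and 0 counts, and Timm17b over all 172 residues by LOC100911130, with 1152 P-sites and 0 counts. Mfn2 shared a run of 572 residues with LOC100911485 (6584 P-sites, 0 counts) and itself had 102 counts for 6697 P-sites. Chchd4 was matched over all 139 residues by LOC100361898 on chromosome 4. That ORF had 749 P-sites and 76 counts, beside 572 and 21 for the Chchd4 ORF on chromosome 1. Which of these 2 ORFs the footprints came from was not tested, so the counts of the Chchd4 ORF may not give the level of the protein's synthesis. Other matches also had counts. An unannotated ORF of AABR07063855.1 shared a run of 170 residues with Tomm70 and had 674 counts, beside 940 for Tomm70. One of AC140988.1 matched all 209 residues of Timm23 and had 16 counts, beside 423 for Timm23. The remaining genes, Phb and Tomm7, have 19 and 4 pseudogenes named after them in the RefSeq gene table. Among the 29 members with at least 0.5 counts per P-site, 3 shared such a run: Mfn1, Timm17a and Tomm20. Whether the shared sequences set the counts was not tested. The changes given below for the 7 genes under 0.5 counts per P-site that could be tested rest on few of their footprints.

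**Figure D2:**
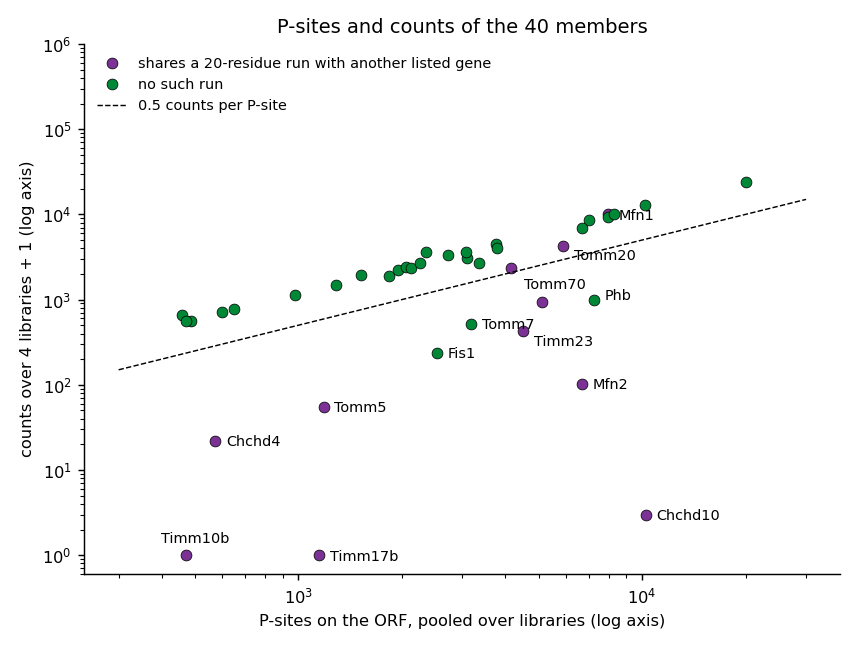
Counts summed over the 4 libraries, plus 1, against P-sites pooled over libraries for the 40 members, both on log axes; purple points share a run of at least 20 residues with a listed ORF of another gene and the dashed line marks 0.5 counts per P-site. The other 29 members lie above the line, whereas Chchd10 lies at 10258 P-sites with 2 counts and Timm10b and Timm17b at 0 counts.

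P-sites of the members were in frame 0 at 77.9% to 89.9%, with a median of 84.6%, beside 84.7% over all ORFs. By RPKM of P-sites in the authors' deposited table, pooled over libraries and so without an error, Chchd10 stood highest at 284. Tomm7 at 218, Timm13 at 160.4 and Tomm20 at 158 followed, and Oma1 was lowest at 4.96. The full-length copy of Chchd10, LOC103694872, was listed with the same 10258 P-sites, and whether P-sites were credited to both was not tested. By counts per kilobase in control, among the 29 well-counted members, Tomm6 led with 291 ± 6.26 CPM per kb (SD, n = 2), Timm13 followed with 253 ± 8.77 and Chchd3 with 229 ± 1.52. Immt and Timm8b came next at 207 ± 3.71 and 207 ± 13.1 and did not differ beyond their spread. At the lower end stood Chchd6 at 13.1 ± 3.61, Tomm40l at 12.9 ± 1.36 and Oma1 at 11.1 ± 0.533. The Chchd6 controls spanned those of Oma1 and overlapped those of Tomm40l, so the place of Chchd6 in this order was not resolved.

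Of the 9 tested genes named for the TOM complex, 3 were higher and none lower, beside 21.4% higher and 21.3% lower among all tested ORFs. Their median log2 fold change was 0.20, the value of Tomm34. Tomm34 is 1 of the 3 higher genes and a largely cytosolic co-chaperone. The summed level of the 9 was 349 and 341 CPM in control and 386 and 383 in PE. Tomm20, the receptor that binds the cleavable targeting sequences of incoming proteins (Rnor_6.0 chromosome 19, 59863853 to 59873301, introns included), had 79.2 and 75.7 CPM in the control libraries and 95.8 and 93.0 in the PE libraries. Both PE values lay above both control values, and the log2 fold change was 0.29 ± 0.05 (SE), with an adjusted p = 4.9e-05. With the length trend removed it was 0.18 (adjusted p = 0.0064). Tomm6, a small subunit that stabilises the complex (chromosome 9, 15313523 to 15314435), had 63.7 and 65.6 CPM in control and 77.6 and 82.2 in PE. Its ORF encodes only 74 residues, and its log2 fold change of 0.30 ± 0.06 (adjusted p = 8.1e-05) became 0.17 (adjusted p = 0.021) once the length trend was removed.

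Tomm34, a largely cytosolic co-chaperone of import, had 44.8 and 46.0 CPM in control and 50.8 and 53.6 in PE. The groups were apart, but its log2 fold change of 0.20 ± 0.07 (adjusted p = 0.021) was no longer called in 6 of the 11 alternative fits, with an adjusted p of up to 0.18. The pore itself did not pass: Tomm40, the channel-forming barrel, had 74.3 and 68.8 CPM in control and 72.9 and 71.8 in PE, and its groups overlapped. The receptor Tomm22 had a log2 fold change of -0.08 ± 0.08, was not called, and was lower with an adjusted p = 0.046 after the length trend was removed. Tomm70, the receptor for carrier proteins, stood at 0.22 ± 0.12 on 0.184 counts per P-site, Tomm40l at -0.18 ± 0.15, and none of these was called. The small subunits Tomm5 and Tomm7 stood at 0.83 ± 0.49 and -0.05 ± 0.15 on 0.0456 and 0.162 counts per P-site and were not called.

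Samm50, the barrel of the SAM complex that inserts Tomm40 and other outer membrane barrels (chromosome 7, 125059028 to 125082367), was lower. It had 205 and 188 CPM in control and 176 and 174 in PE. Both PE values were below both control values, although the control libraries differed from each other by more than the nearer control library differed from PE. The log2 fold change was -0.16 ± 0.04 (adjusted p = 0.0012), and without control replicate 1 it was -0.11 with an adjusted p = 0.062.

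Beside 21.4% higher and 21.3% lower among all tested ORFs, 2 of the 4 tested small TIM chaperones were higher and 1 lower. Their median log2 fold change was 0.21. These proteins of 83 to 100 residues form rings that shield hydrophobic precursors, and each carries a pair of cysteine motifs in which 3 residues separate 2 cysteines, the twin CX3C pattern. All 5 small TIM members held the pattern, and no other member did, beside 2.32% of the 3748 annotated genes whose ORF encodes at most 290 residues. Timm9 and Timm10 encode the partners of a shared ring. In control their levels per length differed by less than the spread, at 163 ± 8.69 CPM per kb for Timm9 and 159.6 ± 2.63 for Timm10 (SD, n = 2), and in PE they stood at 125 ± 3.80 and 193 ± 23.1.

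Timm9 (chromosome 6, 93549865 to 93552652) had 45.2 and 41.9 CPM in control and 34.0 and 32.6 in PE. The groups were well apart, with a log2 fold change of -0.39 ± 0.08 and an adjusted p = 2.1e-04. Timm10 (chromosome 3, 72227178 to 72229866) had 43.6 and 42.6 CPM in control and 47.7 and 56.6 in PE. Its increase of 0.28 ± 0.08 (log2; adjusted p = 0.0040) rested on PE replicate 2, without which it was 0.15 with an adjusted p = 0.22, and it was also 0.15 (adjusted p = 0.12) after the length trend was removed.

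Timm13, whose ring partner is a Timm8 protein (chromosome 7, 11677375 to 11677960), had 70.3 and 73.8 CPM in control and 90.3 and 91.2 in PE. All PE values were above all control values, with a log2 fold change of 0.33 ± 0.06 (adjusted p = 9.0e-06) that fell to 0.21 (adjusted p = 0.0029) without the length trend. Timm8b had 53.8 and 49.2 CPM in control and 54.8 and 58.6 in PE, a log2 fold change of 0.14 ± 0.07 that did not pass. Timm8a1, a related gene whose name the rule does not match, was higher by 0.49 ± 0.16 (adjusted p = 0.015) on 0.397 counts per P-site.

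At the inner membrane, 2 of 7 tested TIM22 and TIM23 genes (28.6%) were lower and 1 (14.3%) was higher. Among all tested ORFs 21.3% were lower and 21.4% higher, so neither share was far from the background. The median log2 fold change of the 7 was 0.00. Timm29, a subunit of the TIM22 carrier complex (chromosome 8, 22626109 to 22626991), had 32.6 and 33.5 CPM in control and 25.9 and 25.7 in PE. Timm21, a TIM23 subunit that hands precursors toward the respiratory chain (chromosome 18, 81803535 to 81807414), had 44.9 and 40.6 CPM in control and 34.4 and 33.7 in PE. Neither gene's groups overlapped, and the log2 fold changes were -0.36 ± 0.09 and -0.32 ± 0.08, with adjusted p of 0.0017 and 0.0016. Timm23, the channel of the presequence pathway, had 6.55 and 7.85 CPM in control and 9.36 and 10.2 in PE. Its log2 fold change of 0.43 ± 0.17 (adjusted p = 0.039) came from 423 counts for 4506 P-sites and was not called in 6 of the 10 alternative fits that kept the gene.

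The rest of the inner membrane translocases were not called. Timm50, the receptor that keeps the TIM23 channel closed at rest, had 51.9 and 56.5 CPM in control and 54.6 and 55.0 in PE. Timm44, which tethers the import motor, had 95.4 and 87.6 CPM in control and 94.8 and 87.4 in PE. In both genes the groups overlapped, with log2 fold changes of 0.01 ± 0.07 and 0.00 ± 0.06. Timm22, the carrier channel, stood at -0.01 ± 0.11 and Timm17a, a TIM23 channel subunit, at 0.15 ± 0.07, and neither passed.

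Members of the CHCHD family carry cysteine pairs separated by 9 residues, the twin CX9C pattern, which were found in all 7 of them and in no other member, beside 2.35% of annotated genes with an ORF of at most 290 residues. Of the 5 that could be tested, 3 were higher and none lower, with a median log2 fold change of 0.29, and the groups of all 5 were apart, beside 21.4% higher, 21.3% lower and 68.6% not overlapping among all tested ORFs. Their summed level was 246 and 257 CPM in control and 295 and 312.5 in PE. Chchd3 and Chchd6 encode MICOS subunits that sit beside Immt at the necks of cristae. Chchd3 (chromosome 4, 60081199 to 60358403) had 155 and 156 CPM in control and 181 and 199 in PE. Its log2 fold change was 0.29 ± 0.04, with an adjusted p = 1.1e-06.

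Chchd6 (chromosome 4, 121341151 to 121565119) had 8.27 and 12.3 CPM in control and 18.7 and 17.3 in PE. This was the largest called change among the members, 1.73-fold, with a log2 fold change of 0.79 ± 0.15 (adjusted p = 3.7e-05). The groups did not overlap, but the control libraries were far apart, and the value was 0.55 without control replicate 1 and 1.12 without control replicate 2. Chchd7, a small twin CX9C protein, had 11.7 and 11.3 CPM in control and 14.6 and 14.8 in PE. The groups were apart by more than their spread, but its log2 fold change of 0.36 ± 0.13 (adjusted p = 0.030) lost its call in 7 of the 11 alternative fits and was 0.23 after the length trend was removed. Chchd1, a mitochondrial ribosome protein, stood at 0.15 ± 0.06 and Chchd5 at 0.05 ± 0.14, and neither was called.

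Immt, the central MICOS scaffold, was not called. It was the most abundantly counted member, with 476 and 488 CPM in control and 472 and 485 in PE, and the groups overlapped, with a log2 fold change of -0.01 ± 0.02. Apool, another MICOS subunit, had 59.1 and 60.1 CPM in control and 63.9 and 62.0 in PE, a log2 fold change of 0.08 ± 0.06 that did not pass. The prohibitins form ring scaffolds of the inner membrane. Phb2 had 137 and 141 CPM in control and 144 and 139 in PE, with overlapping groups and a log2 fold change of 0.02 ± 0.04. Phb stood at 0.20 ± 0.11 on 0.136 counts per P-site and did not pass.

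**Figure D3:**
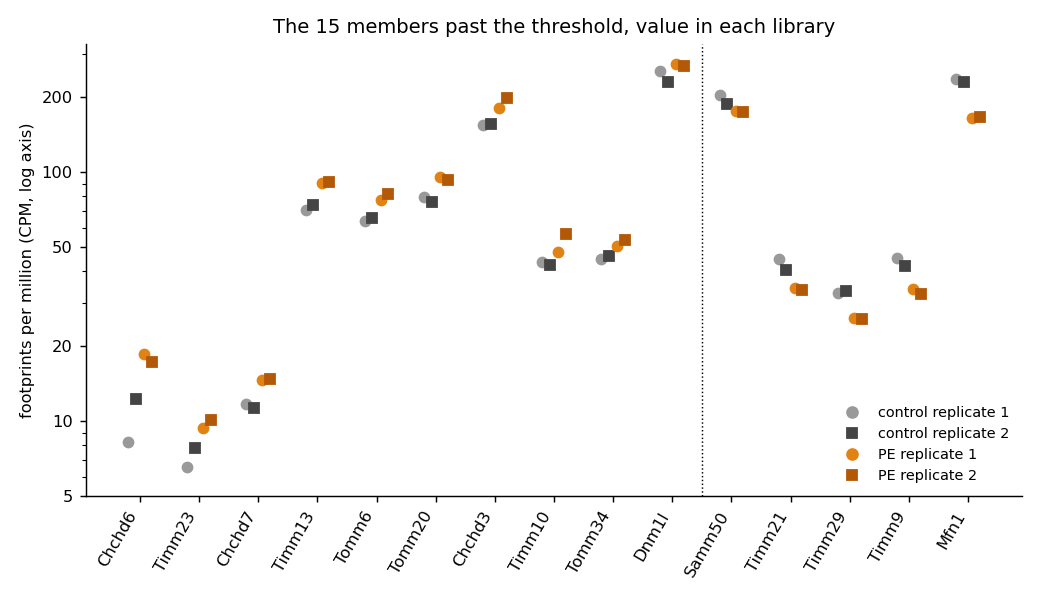
Footprints (CPM, log axis) of the 15 members past the threshold in each of the 4 libraries, ordered by log2 fold change, with the 10 higher members left of the dotted line. In all 15 members both PE libraries lie on the same side of both control libraries. The 15 were picked by a small p, so this adds no support, and 68.6% of all tested ORFs also show it. Chchd6, Samm50 and Dnm1l show a visible gap between the control libraries.

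Among the genes of fusion and fission, Mfn1 had the smallest p of all members. Mfn1 encodes a mitofusin, the outer membrane GTPase that tethers and fuses mitochondria (chromosome 2, 118929738 to 118971689). It had 237 and 229.8 CPM in control and 165 and 166 in PE. The spread within each group was small beside the gap between them, and footprints were 1.41-fold lower, with a log2 fold change of -0.49 ± 0.04 and an adjusted p = 3.4e-13. The call held in all 11 alternative fits. Its paralog Mfn2 could not be judged: it had 32 and 26 counts in control and 27 and 17 in PE, overlapping groups and a log2 fold change of -0.33 ± 0.37.

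Opa1, the inner membrane fusion GTPase whose cleavage tunes fusion and crista width (chromosome 11, 74722816 to 74793673), was not called. It had 188 and 200.2 CPM in control and 204 and 207 in PE. The groups were apart, but the log2 fold change of 0.08 ± 0.04 did not pass, with an adjusted p = 0.076. It passed at 0.175 (adjusted p = 3.1e-04) after the trend with ORF length was removed, at 0.13 (adjusted p = 0.02) without control replicate 2 and at 0.09 (adjusted p = 0.047) with a minimum of 0.5 counts per P-site. Oma1, a stress-activated protease that cleaves Opa1, had 16.2 and 17.3 CPM in control and 14.1 and 14.3 in PE. Its log2 fold change of -0.24 ± 0.12 did not pass.

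Dnm1l encodes Drp1, the dynamin-related GTPase that constricts mitochondria during fission (chromosome 11, 88831130 to 88880000). It had 256 and 230.3 CPM in control and 272 and 268 in PE. Control replicate 1 was closer to the PE libraries than to control replicate 2. The log2 fold change was 0.16 ± 0.04 (adjusted p = 9.8e-04), and without control replicate 2 it was 0.07 with an adjusted p = 0.16. Fis1, an outer membrane protein linked to fission, had 58 and 80 counts in control and 44 and 53 in PE on 2527 P-sites. It stood at -0.43 ± 0.23 and did not pass.

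Ratios of 2 members within a library, which do not depend on the depth of that library, were computed for 7 pairs chosen after their values had been seen. The count ratio of Dnm1l to Mfn1 was 1.08 and 1.00 in control and 1.65 and 1.61 in PE, and that of Opa1 to Mfn1 was 0.790 and 0.871 in control and 1.24 and 1.25 in PE. The ratio of Timm10 to Timm9 was 0.964 and 1.02 in control and 1.40 and 1.74 in PE. Within the MICOS complex, the ratio of Chchd3 to Immt was 0.326 and 0.321 in control and 0.383 and 0.410 in PE, and that of Chchd6 to Immt 0.0174 and 0.0251 in control and 0.0396 and 0.0357 in PE. The ratio of Timm13 to Timm8b was 1.31 and 1.5 in control and 1.65 and 1.56 in PE, and that of Tomm20 to Tomm40 was 1.07 and 1.1 in control and 1.31 and 1.3 in PE. In all 7 pairs the groups did not overlap, where 68.6% of all tested ORFs taken singly did not either. An exact two-sided permutation test gave p = 0.333 for each. That is the smallest p that 2 against 2 libraries allow, so this test could not reach 0.05.

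**Figure D4:**
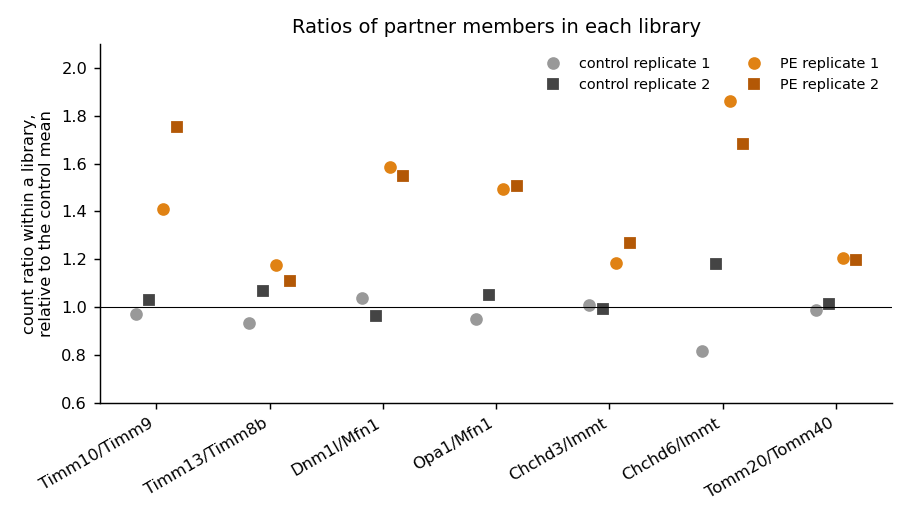
Ratio of the counts of 2 members within each library, divided by the mean ratio of the control libraries, for 7 pairs. The PE libraries lie above both control libraries in every pair, and the PE libraries of Timm10 against Timm9 lie apart from each other (ratios of 1.40 and 1.74 before the division).

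Other ORFs on the member genes had few counts. The table listed 14 of them: 5 upstream ORFs, 2 upstream ORFs that overlap the coding sequence, 5 downstream ORFs and 2 ORFs classed as unannotated. Of these 3 had enough counts to test and none was called, with 0 at an unadjusted p under 0.05 and 0 called by DESeq2. The 2 unannotated ORFs, both on Timm50, had 597 and 183 P-sites but 0 counts in every library. The overlapping upstream ORF of Opa1 had 19 and 15 counts in control and 23 and 19 in PE, on 122 P-sites. That of Dnm1l had 14 and 24 counts in control and 12 and 12 in PE, on 219 P-sites. The upstream ORF of Timm10 next to its start had 13 and 9 counts in control and 14 and 12 in PE. The standard errors of the 3 log2 fold changes were 0.41 for Opa1, 0.44 for Dnm1l and 0.50 for Timm10.

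Promoters of the members were examined for motifs of factors known to control nuclear genes of mitochondrial proteins. RefSeq promoter sequences on the GRCr8 build, from 250 bases before to 50 after the start of transcription, matched 35 of the 40 members, all but Chchd7, Immt, Mfn2, Timm29 and Tomm34. The motifs, searched on both strands, were GCGC, any base and TGCGC for NRF1, CCGGAAG for ETS factors such as GABP, AAGGTCA for estrogen-related receptors, AAGATGGC for YY1, TGATGNAA for ATF4 and CCAAT for NF-Y, and none of these strings contains another. The NRF1 motif was in 7 member promoters (20.0%) and in 6.19% of the 18999 protein-coding genes with a promoter sequence, and the ETS motif in 12 (34.3%) and 11.6%. The other motifs were in 3, 2, 2 and 17 member promoters, or 8.57%, 5.71%, 5.71% and 48.6%, beside 4.05%, 4.08%, 3.61% and 39.8% of all genes. These shares describe letters in a window and not binding.

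Members with the NRF1 or ETS motif were called in both directions. Of the 7 with the NRF1 motif, Tomm20 was higher, Timm21 was lower and the other 5, Chchd4, Oma1, Opa1, Phb and Tomm7, were not called or not tested. Of the 12 with the ETS motif, Chchd3, Timm10, Timm23 and Tomm20 were higher and Mfn1 was lower, and Timm10b was not tested. Of all 35 members with a promoter sequence, 8 were higher and 4 lower. Among all tested ORFs 21.4% were higher and 21.3% lower. The small counts per motif were not tested against these shares. Stretches of 80 bases are shown for 3 promoters with each motif, as examples: the higher Tomm20 and the uncalled Opa1 and Phb for NRF1, and the higher Chchd3 and Timm10 and the lower Mfn1 for ETS. They read 5′ to 3′ on the strand of the gene with the motif in capitals, on either strand, and lie at chr19:71832480-71832559 (minus strand) for Tomm20, chr11:84689990-84690069 (minus) for Opa1, chr10:81101963-81102042 (plus) for Phb, which RefSeq names Phb1, chr4:62584149-62584228 (minus) for Chchd3, chr3:90315045-90315124 (plus) for Timm10 and chr2:117241678-117241757 (plus) for Mfn1.
Tomm20: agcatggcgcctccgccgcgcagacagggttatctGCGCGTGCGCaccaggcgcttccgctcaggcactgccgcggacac
Opa1: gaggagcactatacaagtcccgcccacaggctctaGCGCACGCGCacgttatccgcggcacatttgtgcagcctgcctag
Phb: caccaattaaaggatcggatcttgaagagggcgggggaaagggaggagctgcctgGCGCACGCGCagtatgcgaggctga
Chchd3: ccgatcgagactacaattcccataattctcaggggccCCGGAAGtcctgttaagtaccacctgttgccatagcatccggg
Timm10: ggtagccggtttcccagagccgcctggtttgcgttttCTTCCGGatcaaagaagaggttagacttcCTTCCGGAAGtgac
Mfn1: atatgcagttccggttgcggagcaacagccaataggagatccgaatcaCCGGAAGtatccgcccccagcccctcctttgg
The NRF1 motif of Tomm20 begins 104 bases before the start of transcription, and those of Opa1 and Phb, both on the opposite strand, 134 and 25 bases before it. The ETS motif occurs 3 times within the stretch of Timm10, and 2 of these overlap on opposite strands.

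The wider set of import, proteolysis and dynamics genes was also mixed. Of 67 such genes outside the rule that the table listed, 62 were tested. Of these 17 were higher (27.4%) and 10 lower (16.1%), beside 21.4% and 21.3% of all tested ORFs. Their median log2 fold change was 0.07. DESeq2 called fewer ORFs in all, with 12.9% higher and 12.8% lower in the authors' deposited comparison. DESeq2 called 8 and 6, library totals without TMM scaling gave 12 and 13, and leaving out PE replicate 1 or control replicate 2 left 10 or 11 higher. The 4 higher genes with the smallest p were the outer membrane ubiquitin ligase March5, the hypoxia-inducible inner membrane protein Higd1a, the outer membrane protein Mtch1 and the presequence peptidase subunit Pmpca. March5 went from 48.0 and 48.8 CPM in control to 70.6 and 71.8 in PE, a log2 fold change of 0.56 ± 0.06 (adjusted p = 9.0e-09), and the others were 0.28, 0.32 and 0.32.

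The 4 lower genes with the smallest p were Pink1, Clpx, Mul1 and Higd2a. Pink1, the kinase that marks mitochondria with failed import for removal, had 88.0 and 92.2 CPM in control and 40.1 and 46.3 in PE. Its log2 fold change of -1.06 ± 0.07 (adjusted p = 7.9e-15) lay outside the range of the members. The outer membrane ubiquitin ligase Mul1 fell by 0.75, the matrix unfoldase Clpx by 0.33 and Higd2a, a respiratory supercomplex factor, by 0.81 on 0.287 counts per P-site. Side by side and without a test, 29 of 70 mitochondrial ribosomal protein genes (41.4%) were higher and 5 (7.14%) lower. Their median log2 fold change was 0.08. Of 75 nuclear respiratory chain and ATP synthase genes 19 (25.3%) were higher and 31 (41.3%) lower, with a median of -0.04. The shares among all tested ORFs were 21.4% and 21.3%.

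**Figure D5:**
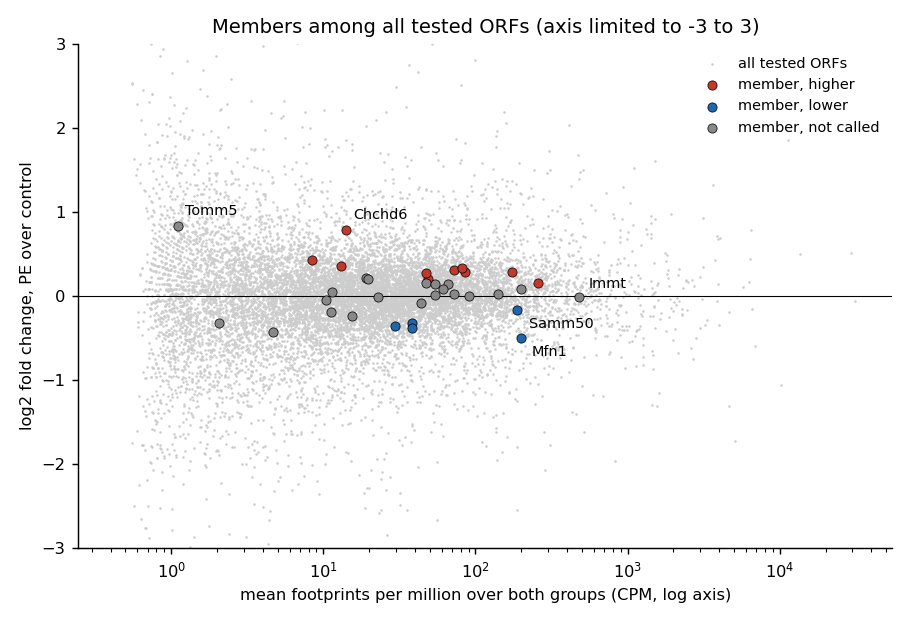
Log2 fold change, PE over control, against mean CPM over both groups (log axis) for all 12609 tested ORFs in grey (the few beyond the plotted range are not shown), and the 36 tested members coloured by call. The members lie near the middle of the cloud, between -0.49 and 0.83, with Immt as the most abundantly counted and Mfn1 and Samm50 below 0 among the well-counted ones.

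The authors' deposited table gives its own DESeq2 comparison, in which 12.9% of the 13269 ORFs with an adjusted p were higher and 12.8% lower at the same threshold. Among the members it called 6 higher and 5 lower. All 11 were also called by edgeR in the same direction, and the edgeR calls it lacked were Chchd7, Timm10, Timm23 and Tomm34. In the authors' deposited table Mfn1 had a log2 fold change of -0.50 and Chchd6 of 0.80.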

How the data were processed

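Ribosome footprints of 4 libraries were analysed. Per the labels' protocols, lysates were treated with cycloheximide and RNase I and short fragments were sequenced. The genome build was Rnor_6.0 and the tools included STAR 2.4.2a, Bowtie 1.1.2 and cutadapt 2.0, per the submitters' processing notes. How ORFs were called and counted is not given in the sources used here. Counts deposited by the authors are whole numbers per ORF for each library. Per the file headers, an annotation adds P-site counts per frame and RPKM of P-sites, both pooled over libraries, and a DESeq2 comparison with a mean normalized signal, log2 fold changes, a Wald score and p-values. Per-sample columns not used numbered 0. Groups came from sample titles, because the treatment text names PE for all libraries.

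Counts were filtered with filterByExpr, scaled by TMM (factors 0.982 to 1.02) and tested with edgeR 4.0.16 in R 4.3.3 (robust quasi-likelihood, no replicate term, Benjamini-Hochberg over 12609 ORFs, threshold 0.05). CPM are TMM-scaled and SE is the log2 fold change over the square root of F. The test was checked on simulated counts. Cysteine patterns and shared runs of 20 residues were read from the deposited ORF translations, and promoters from RefSeq (GRCr8). Alternatives were RLE factors, library totals, no filter, DESeq2 1.42.0, a replicate block, each library left out, a length offset (loess), the ORF with most P-sites, and a minimum of 0.5 counts per P-site. Values in each library are given for the called member of smallest p per role and the 8 highest and 8 lowest called members; other members shown were picked for their role. Of other pathway genes, the 4 of smallest p per direction are named. Members, lists, pairs and motifs were chosen with earlier results of these data known.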

Additional observations from a re-analysis of the deposited data

How the results depend on the processing

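The counts of 10 higher and 5 lower members were within 1.5 times under every alternative with all 4 libraries except DESeq2, which called 6 higher. Fits with a library left out also stayed within 1.5 times, except for the higher members without PE replicate 2. For the other pathway genes, DESeq2 called 8 higher and 6 lower, and left-out libraries gave 10 to 14 higher and 7 to 10 lower. No named member changed direction, and 9 of the 15 (Chchd3, Chchd6, Mfn1, Timm13, Timm21, Timm29, Timm9, Tomm20 and Tomm6) kept their call in every alternative run. Where a library was left out, the lone one of its group was assumed to vary like the other group. With the replicate block, 11 members were higher and 5 lower. The numbers were not taken as pairs in the main fit, because no source says that a number marks a shared preparation. Same-numbered libraries did not deviate together (correlation 0.014 over 8282 ORFs), which does not decide whether preparations were shared. Chchd1 passed with the block (adjusted p = 0.045), without control replicate 2 (0.024) and with a minimum of 0.5 counts per P-site (0.041). Timm23 had no value under that minimum. The cause of these differences was not tested. Low counts limit the upstream ORFs and also Tomm5, Mfn2 and Fis1, whose log2 fold changes had standard errors of 0.49, 0.37 and 0.23. These 3 genes had 54, 102 and 235 counts on 1184, 6697 and 2527 P-sites.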
